A study of Homo sapiens with 9 samples.

Results

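MYC, ODC1 and FBL were followed across macrophage-like cells given vehicle, cisplatin or osimertinib. They are 3 of the 14884 genes that could be named in the deposited table. The genes were picked by symbol after the differences between the 3 groups had been seen, so their own levels and differences are given as a description, with no test. Each was represented by exactly 1 row of the table: MYC by Entrez gene 4609, ODC1 by Entrez gene 4953 on chromosome 2, and FBL by Entrez gene 2091 on chromosome 19.

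The cells were THP-1, an established line of human leukaemic monocytes, brought to an unpolarised macrophage-like form called M0 with the phorbol ester PMA. All 3 groups therefore carried the same PMA exposure. Vehicle, cisplatin at 0.5 µM (a platinum compound that crosslinks DNA) or osimertinib at 100 nM (a covalent inhibitor of the epidermal growth factor receptor kinase) was then left on the cells for 16 h. Each group had 3 samples, described by the submitters as independent biological replicates, and each sample was read on its own Affymetrix Human Gene 2.0 ST array, so all values come from 9 arrays of 1 line at 1 dose and 1 time per drug.

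Levels are on the deposited log scale, read as log2, where a step of 1 is a doubling. A different base would alter all folds given here. The columns ran from 0.65 to 13.17, arrays of 1 group correlated at 0.983 to 0.991 and arrays of different groups at 0.943 to 0.985. The 7442 genes at or above the median gene level of 4.28 were tested, and MYC, ODC1 and FBL were all among them. Of 14 macrophage and monocyte markers, 8 were named and 5 tested: CD68 averaged 9.71, CSF1R 8.83, TYROBP 7.58, SPI1 7.22 and CD14 4.30. The markers CD163 (2.43), LYZ (3.25) and MARCO (3.19) were below the level limit. The mean over the 8 named markers lay between 5.69 and 5.74 on the vehicle arrays, 5.82 and 5.97 with cisplatin, and 5.74 and 5.88 with osimertinib. With each drug 2 of the 5 tested markers were higher and 0 lower by limma. Over all tested genes 16.5% were higher with cisplatin and 16.9% with osimertinib. The part of these markers in the results below was not tested. No T cell or fibroblast marker reached the level limit. Of other lists, the B cell marker PAX5 (4.49), the granulocyte marker AZU1 (4.57) and the keratins KRT8 (4.66) and KRT18 (7.49) did, and 1 of the keratins was lower with each drug. The shares of all tested genes that were lower were 14.5% with cisplatin and 13.7% with osimertinib. Arrays have no read depth; precision rests on having 3 of them a group.

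MYC is a transcription factor that pairs with MAX and binds the E-box, the DNA letters CACGTG, at many genes of growth and metabolism. ODC1, ornithine decarboxylase, carries out the first and rate-limiting step of polyamine synthesis and is a textbook MYC target. FBL, fibrillarin, is the methyltransferase of the box C/D small nucleolar ribonucleoproteins (snoRNPs), which modify ribosomal RNA in the nucleolus. In macrophages MYC is known for its links to alternative activation, and polyamines for their role in activation state.

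The E-box was looked for in the RefSeq promoter windows of build GRCh38.p14, each reaching from 250 bases before to 50 bases after a transcription start. The motif reads the same on both strands. ODC1 had windows for a pair of starts, of which the downstream one held the E-box at 2 places and the upstream one held none, and the single FBL window held 1. The stretches are shown because the same letters recur in genes described below: NOP10, BYSL and HK2, which rose with both drugs, and SRM, which passed the test with neither. Capitals mark the E-box, each stretch is read on the strand of its gene, and positions count from the start as base 1.
ODC1, chr2:10448024-10448053, minus strand, E-box from base -29: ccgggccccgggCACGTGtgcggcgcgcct
ODC1, chr2:10447990-10448019, minus strand, E-box from base 6: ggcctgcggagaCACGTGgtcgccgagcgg
FBL, chr19:39846356-39846385, minus strand, E-box from base 7: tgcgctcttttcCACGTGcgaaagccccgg
NOP10, chr15:34343130-34343159, minus strand, E-box from base -11: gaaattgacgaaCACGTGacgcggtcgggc
BYSL, chr6:41921515-41921544, plus strand, E-box from base 29: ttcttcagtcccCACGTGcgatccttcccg
HK2, chr2:74835009-74835038, plus strand, E-box from base -149: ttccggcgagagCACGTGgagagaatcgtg
SRM, chr1:11060200-11060229, minus strand, E-box from base -199: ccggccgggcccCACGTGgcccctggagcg

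An E-box was present in 7.26% of all 35116 windows and, counting a gene once, in 758 of the 5861 tested genes that have a window (12.9%). A match of these letters is a description and does not show a bound site.

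MYC stood lowest with vehicle and highest with osimertinib. The vehicle arrays read 4.87, 5.08 and 4.84, the cisplatin arrays 5.47, 5.56 and 5.68, and the osimertinib arrays 6.17, 5.81 and 5.98. No array of one group overlapped with an array of another. The nearest cisplatin and vehicle arrays were 0.39 log2 units apart, the nearest osimertinib and vehicle arrays 0.72, and the nearest osimertinib and cisplatin arrays 0.13. The means were 4.93 ± 0.13 for the vehicle group, 5.57 ± 0.10 for cisplatin and 5.98 ± 0.18 for osimertinib (SD, n = 3 each). MYC was thus 1.55-fold above vehicle with cisplatin (log2 difference 0.64, SE 0.12) and 2.07-fold above it with osimertinib (1.05, SE 0.12). Between the drugs it was 1.33-fold higher with osimertinib (0.41, SE 0.12). In bulk RNA such a difference cannot be parted into more RNA per cell and more cells that carry it.

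ODC1 showed the widest spread between the groups of the 3 genes, most of it between the osimertinib arrays and the rest. The vehicle arrays read 7.03, 6.80 and 7.02, the cisplatin arrays 7.18, 7.50 and 7.42, and the osimertinib arrays 8.51, 8.41 and 8.16. The groups did not overlap, but the nearest cisplatin and vehicle arrays were only 0.15 apart, against 1.13 between the nearest osimertinib and vehicle arrays and 0.66 between the drugs. The means were 6.95 ± 0.13, 7.36 ± 0.16 and 8.36 ± 0.18 (SD, n = 3 each). The difference from vehicle was 0.41 with cisplatin (SE 0.11, 1.33-fold) and 1.41 with osimertinib (SE 0.11, 2.66-fold). ODC1 was 2.00-fold higher with osimertinib than with cisplatin (1.00, SE 0.11). Among all tested genes it ranked 34 by the size of the osimertinib difference from vehicle and 1415 by that of cisplatin.

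FBL took the opposite order of the drugs, with cisplatin on top. The vehicle arrays read 5.44, 5.45 and 5.21, the cisplatin arrays 6.21, 6.50 and 6.30, and the osimertinib arrays 6.14, 6.16 and 6.16. Every drug array lay well above every vehicle array, with gaps of 0.76 for cisplatin and 0.69 for osimertinib, while the lowest cisplatin array was only 0.046 above the highest osimertinib array. The means were 5.37 ± 0.13, 6.34 ± 0.15 and 6.15 ± 0.014 (SD, n = 3 each). FBL was 1.96-fold above vehicle with cisplatin (0.97, SE 0.10) and 1.72-fold above it with osimertinib (0.78, SE 0.10). The difference of osimertinib minus cisplatin was -0.18 (SE 0.10), less than 2 standard errors.

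**Figure D1:**
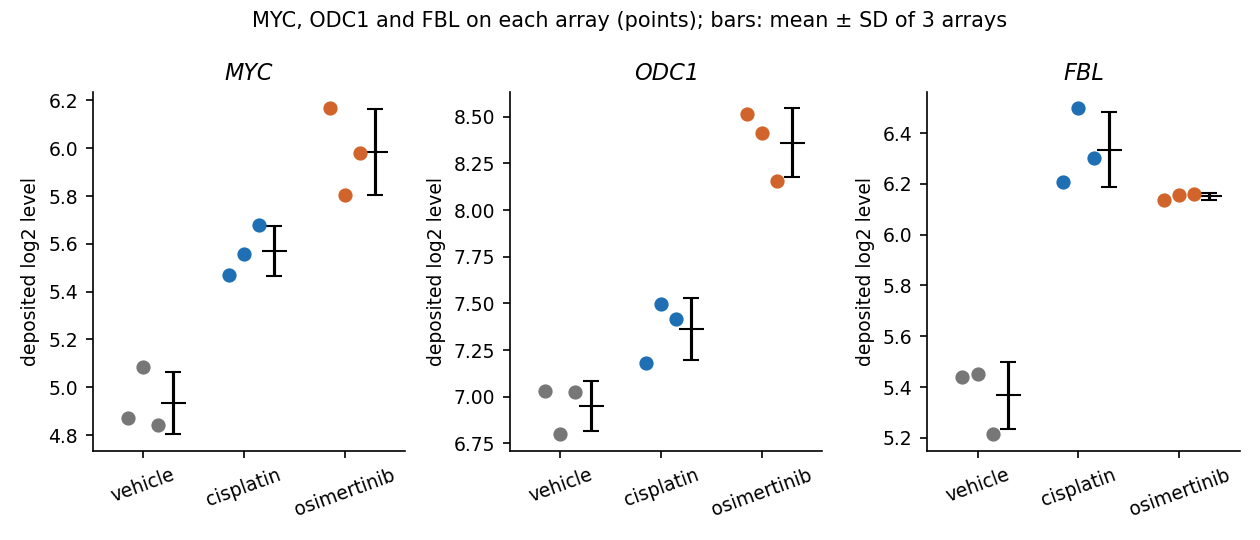
Deposited log2 level (vertical axis, a separate scale for each gene that does not start at 0) of MYC, ODC1 and FBL on each of the 9 arrays by treatment group; points are arrays, and the bars beside them the mean ± SD of 3 arrays. MYC climbs from a mean of 4.93 to 5.57 and 5.98, ODC1 stands apart with osimertinib at 8.36, and FBL is near 6.34 and 6.15 with the drugs against 5.37 with vehicle.

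Arrays of the groups failed to overlap for 3 of 3 genes in each comparison. Among all tested genes, 22.5% had every cisplatin array above every vehicle array, and 24.6% had every osimertinib array above them. Between the drugs, 7.44% had all osimertinib arrays on top, as MYC and ODC1 did, and 6.88% all cisplatin arrays on top, as FBL did. The order of the group means was vehicle, cisplatin, osimertinib for MYC and ODC1, and vehicle, osimertinib, cisplatin for FBL. The smallest step in these orders was that between the drugs for FBL, at about 2 standard errors. None of the steps of these 3 genes was tested. Both drug comparisons use the same vehicle arrays, so a low or high vehicle array moves both differences of a gene together. Pseudogenes of ODC1 and FBL (ODCP and FBLP1) and the FBL paralog FBLL1 exist in RefSeq, and the array cannot part transcripts that share probe sequence.

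For each of the 3 genes the 5 protein-coding genes with the most similar profile were found, as the root mean square (RMS) difference over the 9 arrays after each gene was centred on its own mean, among 6777 candidates. For MYC these were HSD17B4 (0.10), RRM2B (0.11), PSAT1 (0.11), PDCD4 (0.13) and ENPP4 (0.13), against a median RMS difference of 0.44 over all candidates. HSD17B4, a peroxisomal enzyme of fatty acid breakdown, read 6.53 ± 0.0083 in the vehicle group, 7.27 ± 0.068 after cisplatin and 7.57 ± 0.077 after osimertinib (SD, n = 3 each). For ODC1 they were SUCNR1 (0.15), GALNT12 (0.18), PPDPF (0.18), RAB11FIP4 (0.21) and TMEM38B (0.21), with a median of 0.60. GALNT12, which starts sugar chains on secreted proteins, differed from vehicle by 0.70 with cisplatin and 1.54 with osimertinib. For FBL they were TMT1B (0.075), SIAH2 (0.078), MON1B (0.089), OTUD7B (0.089) and HAPSTR1 (0.091), with a median of 0.43. The FBL profile was thus matched most closely and the ODC1 profile least. By the same measure MYC was 0.29 from ODC1 and 0.28 from FBL, and ODC1 was 0.50 from FBL, so none of the 3 was among the nearest profiles of another. These profiles were picked for likeness over the 9 arrays and carry no test.

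**Figure D2:**
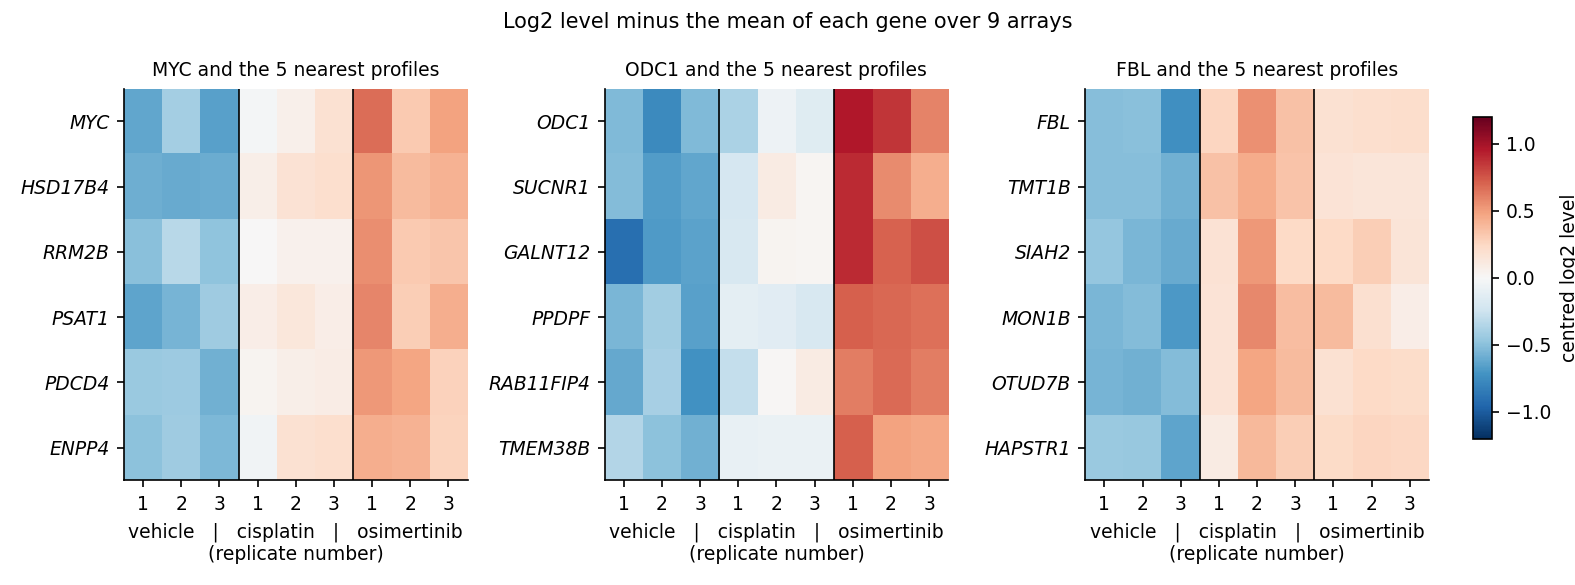
Log2 level of each gene minus its own mean over the 9 arrays (colour, blue below and red above the mean) for MYC, ODC1 and FBL (top row of each panel) and the 5 genes with the smallest RMS difference to each; columns are arrays by group and replicate number. The MYC and ODC1 panels are reddest with osimertinib, and the FBL panel is about as red with both drugs.

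The rest of the MYC network was tested next: the MAX partners that act with or against MYC and regulators of MYC itself. The limma test with Benjamini-Hochberg adjustment over all 7442 genes called 31.0% of genes between cisplatin and vehicle (16.5% higher, 14.5% lower) and 30.6% between osimertinib and vehicle (16.9% higher, 13.7% lower). Between the drugs it called 1.75% (0.766% higher with osimertinib, 0.981% lower). Of 12 tested network genes other than MYC, 2 rose and 3 fell with cisplatin, and 1 rose and 1 fell with osimertinib, with medians of -0.14 and -0.034 against 0.032 and 0.037 over all tested genes. The osimertinib median turned to 0.035 with quantile normalization and 0.029 with each array centred on its median. The median of all tested genes was then 0.109 and 0.100, so the network stayed below it. The shares that rose, 16.7% and 8.33%, became 41.7% and 25% with quantile normalization, beside 26.4% and 26.9% of all tested genes. The 25% that fell with cisplatin was the same under both scalings.

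MXD1, which competes with MYC for MAX and represses the same sites, rose with both drugs. It read 7.34, 7.33 and 7.14 with vehicle, 7.81, 7.91 and 8.07 with cisplatin, and 7.66, 7.50 and 7.53 with osimertinib, with no overlap between the groups. The rise was 0.66 with cisplatin (SE 0.083, limma adjusted p = 5.97e-05) and 0.29 with osimertinib (adjusted p = 0.0174). The osimertinib call was lost without vehicle replicate 3 (0.0847) or osimertinib replicate 1 (0.0726). Unlike MYC, MXD1 was lower with osimertinib than with cisplatin (-0.37, limma adjusted p = 0.0396), a call that was lost in 12 of 18 alternatives, with adjusted p up to 0.174. MAX itself, the shared partner, differed from vehicle by -0.14 with cisplatin and -0.17 with osimertinib and did not pass the test.

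The genes that fell with cisplatin were MGA, a repressive MAX partner (-0.40, limma adjusted p = 0.00749), TRRAP, a scaffold through which MYC recruits histone acetyltransferases (-0.37, 0.00423), and FUBP1, a DNA-binding activator of MYC transcription (-0.38, 0.00113). FUBP1 read 7.11, 7.19 and 7.09 with vehicle, 6.68, 6.81 and 6.75 with cisplatin, and 6.85, 6.86 and 6.90 with osimertinib. It also fell with osimertinib (-0.26, limma adjusted p = 0.0126), a call lost with median centring (0.0915) and without vehicle replicate 2 (0.0569). MGA (-0.28, limma adjusted p = 0.0504) and TRRAP (-0.20, 0.0875) did not pass the test with osimertinib. MLX, which pairs with MXD proteins and with glucose-sensing factors, rose by 0.25 with cisplatin (limma adjusted p = 0.0225), and this call was lost without trend and robust fitting (0.0646), without vehicle replicate 1 (0.102) or 3 (0.0672) and without cisplatin replicate 2 (0.0745) or 3 (0.106).

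**Figure D3:**
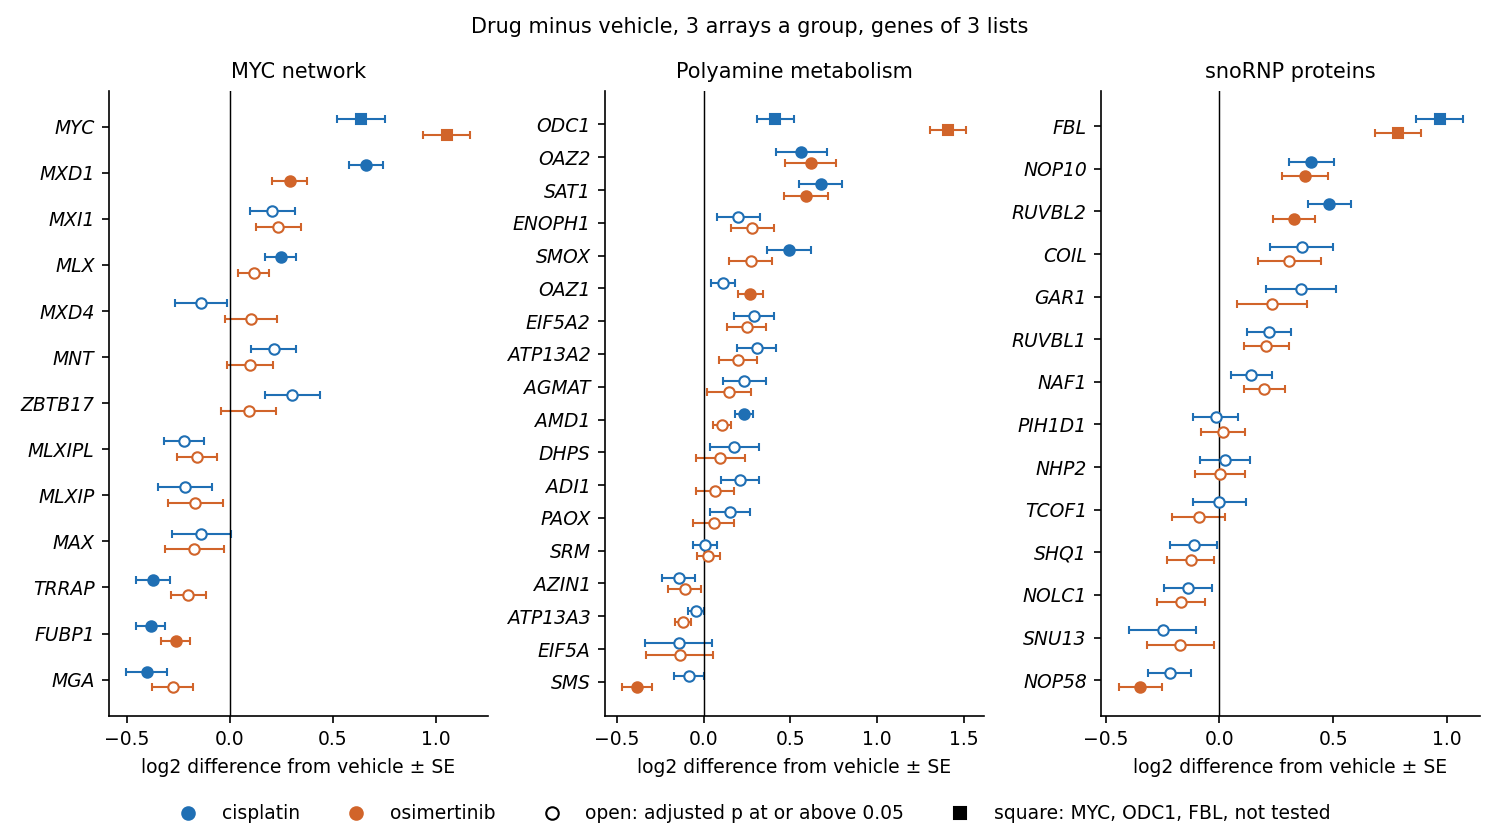
Log2 difference from vehicle (horizontal axis, ± SE) for the tested genes of the MYC network, of polyamine metabolism and of the snoRNP proteins, with cisplatin in blue and osimertinib in orange; filled circles passed limma at an adjusted p under 0.05, and squares are MYC, ODC1 and FBL, which are shown without a test. Each square stands at or near the top of its panel, with ODC1 at 1.41 for osimertinib and FBL at 0.97 for cisplatin, while most other genes of the 3 lists lie within 0.5 of vehicle.

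Around ODC1, SAT1 and OAZ2 rose with both drugs, SMOX and AMD1 with cisplatin and OAZ1 with osimertinib, and neither synthase downstream of ODC1 was called higher. Of 17 tested genes of polyamine and methylthioadenosine metabolism other than ODC1, 4 rose and 0 fell with cisplatin, where 6 had an unadjusted limma p under 0.05, and 3 rose and 1 fell with osimertinib. The medians were 0.20 and 0.10, against 0.032 and 0.037 over all tested genes. The shares that rose, 23.5% and 17.6%, stood beside 16.5% and 16.9% of all tested genes, and became 41.2% and 47.1% with quantile normalization, beside 26.4% and 26.9%.

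SAT1, which acetylates spermidine and spermine for export or breakdown, read 6.21, 6.45 and 6.82 with vehicle, 7.01, 7.24 and 7.25 with cisplatin, and 7.10, 7.05 and 7.10 with osimertinib. All 6 drug arrays lay above the vehicle arrays, which were themselves spread over 0.6 log2 units. SAT1 rose by 0.67 with cisplatin (SE 0.12, limma adjusted p = 0.00111) and by 0.59 with osimertinib (0.0028). OAZ2, an antizyme that binds ODC1 and sends it to the proteasome, rose by 0.56 (limma adjusted p = 0.00984) and 0.62 (0.00562), from 3.94 ± 0.077 to 4.50 ± 0.29 and 4.56 ± 0.17 (SD, n = 3 each). Its vehicle mean lay below the level limit of 4.28, so OAZ2 was tested only because of its drug arrays. OAZ1, the more general antizyme, rose with osimertinib by 0.27 (limma adjusted p = 0.0115), a call lost without trend and robust fitting (0.0561) and without vehicle replicate 1 (0.0574) or osimertinib replicate 2 (0.0518). It differed by 0.11 with cisplatin and did not pass the test.

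SMOX, which oxidises spermine back to spermidine, rose with cisplatin by 0.49 (limma adjusted p = 0.00861) and differed by 0.27 with osimertinib (0.121). AMD1, which makes the aminopropyl donor for the synthases, rose with cisplatin by 0.23 (limma adjusted p = 0.00411) and differed by 0.10 with osimertinib (0.154). Neither difference between the drugs passed the test. SRM, spermidine synthase, stood at 7.42 ± 0.0046, 7.43 ± 0.10 and 7.45 ± 0.042 in the 3 groups (SD, n = 3 each). SMS, spermine synthase, read 7.22, 7.34 and 7.20 with vehicle, 7.06, 7.24 and 7.21 with cisplatin, and 7.01, 6.74 and 6.87 with osimertinib. The osimertinib arrays lay below all others, and SMS fell with osimertinib by 0.38 on the log2 scale (SE 0.085, limma adjusted p = 0.00381), while the cisplatin difference of -0.086 did not pass the test. AZIN1, which frees ODC1 from antizyme, differed by -0.14 and -0.11 and passed with neither drug. In the direct comparison of the drugs 0 of the 17 genes passed limma, and 3 had an unadjusted p under 0.05.

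Around FBL, RUVBL2 and NOP10 rose with both drugs and NOP58 fell with osimertinib. Of 13 tested genes for core proteins and assembly factors other than FBL, 2 rose and 0 fell with cisplatin, where 6 had an unadjusted limma p under 0.05, and 2 rose and 1 fell with osimertinib. The medians were 0.025 and 0.015, beside 0.032 and 0.037 over all tested genes. The shares that rose were 15.4% with each drug, beside 16.5% and 16.9% of all tested genes, and became 46.2% and 38.5% with quantile normalization, beside 26.4% and 26.9%. The pair that rose were the same genes with both drugs: RUVBL2, an ATPase of the complex that assembles box C/D particles, and NOP10, a small core protein of the H/ACA particles. RUVBL2 rose by 0.48 with cisplatin (limma adjusted p = 0.00152) and 0.33 with osimertinib (0.0170), the second call being lost without vehicle replicate 3 (0.0581), osimertinib replicate 1 (0.0679) or osimertinib replicate 3 (0.0534). NOP10 read 7.27, 7.22 and 7.28 with vehicle, 7.58, 7.83 and 7.58 with cisplatin, and 7.88, 7.53 and 7.49 with osimertinib. Its drug arrays all lay above vehicle, and it rose by 0.40 (limma adjusted p = 0.00771) and 0.38 (0.0115).

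NOP58, which sits with FBL in the core of the box C/D particle, went the other way. It read 7.43, 7.30 and 7.25 with vehicle, 7.06, 7.13 and 7.13 with cisplatin, and 7.20, 6.93 and 6.80 with osimertinib. NOP58 fell with osimertinib by 0.35 on the log2 scale (limma adjusted p = 0.0129), a call lost without vehicle replicate 1 (0.0595) or osimertinib replicate 3 (0.0619), and its cisplatin difference of -0.22 (0.101) did not pass. SNU13, another core protein of that particle, differed by -0.25 and -0.17 and passed with neither drug. NHP2, of the H/ACA core (0.025 and 0.0019), and PIH1D1, an assembly factor (-0.017 and 0.015), passed with neither drug. Between the drugs 0 of the 13 genes passed limma, and 0 had an unadjusted p under 0.05. Of RNA polymerase I and its factors, which transcribe ribosomal RNA, only 4 of 21 listed genes were tested: POLR1F, POLR2H, RRN3 and TBP. By limma 0 passed in any comparison, and the count at an unadjusted p under 0.05 was 0 for cisplatin, 1 for osimertinib and 1 between the drugs.

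Ribosome assembly factors, which process ribosomal RNA and build the subunits around it, moved in both directions, with more up than down. Of 48 tested, 14 rose and 3 fell with cisplatin (29.2% and 6.25%) and 13 rose and 5 fell with osimertinib (27.1% and 10.4%), against 16.5% higher and 14.5% lower with cisplatin and 16.9% and 13.7% with osimertinib over all tested genes. The medians were 0.13 and 0.10. LYAR, among the 14 that rose with cisplatin (0.40, limma adjusted p = 0.0480), averaged 4.35, just above the level limit of 4.28. Its vehicle mean lay below that limit, so LYAR was tested only because of its drug arrays. That call was lost with no level filter (limma adjusted p = 0.0882), among other alternatives. The counts that rose depended on single arrays: with cisplatin 9 rose without vehicle replicate 1 or 2 or cisplatin replicate 2 and 8 without cisplatin replicate 3, and with osimertinib 8 rose without vehicle replicate 1, vehicle replicate 3 or osimertinib replicate 1. Between the drugs 0 of the 48 passed limma, and 2 had an unadjusted p under 0.05.

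GRWD1, a histone-binding nucleolar protein, was the highest of them with both drugs. It read 5.97, 6.04 and 5.92 with vehicle, 6.44, 6.74 and 7.03 with cisplatin, and 6.62, 6.76 and 6.80 with osimertinib, a rise of 0.76 (limma adjusted p = 4.02e-04) and 0.75 (4.31e-04). Its drug arrays all lay at least 0.4 log2 units above vehicle. TBL3, of the small-subunit processome, rose by 0.63 and 0.64, BYSL, a small-subunit factor, by 0.63 and 0.53, and RRP12 by 0.63 and 0.36. FTSJ3, an RNA methyltransferase, rose by 0.54 and 0.59, and NIP7 by 0.53 and 0.37. For these 5 genes the limma adjusted p was at most 0.0107 in both comparisons with vehicle.

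The assembly genes that fell are named here after their values were seen. HEATR1 and WDR36, both of the small-subunit processome, and the helicase DDX10 fell with both drugs. WDR36 fell by 0.28 on the log2 scale with cisplatin and by 0.30 with osimertinib, and both calls were lost with median centring (limma adjusted p = 0.0635 and 0.0707) and without vehicle replicate 3 (0.0688 and 0.0520), and the osimertinib call also without osimertinib replicate 2 (0.0595). The DDX10 calls (-0.32 with each drug) were lost in 11 and 12 of 18 alternatives. HEATR1 fell by 0.36 on the log2 scale with cisplatin (limma adjusted p = 0.00793) and by 0.34 with osimertinib (0.0112), the second call being lost with median centring (0.0531) and without vehicle replicate 2 (0.0556) or osimertinib replicate 2 (0.0599). NCL, nucleolin, fell with osimertinib by 0.32 on the log2 scale (limma adjusted p = 0.0076), and its cisplatin difference was -0.21 (0.0558). DDX56, another helicase, fell with osimertinib (-0.37, limma adjusted p = 0.0176, but 0.0641 with median centring, 0.0828 without vehicle replicate 2 and 0.0791 without osimertinib replicate 2), its cisplatin difference of -0.27 (0.0693) did not pass, and nor did its difference between the drugs. With each array centred on its median only 1 assembly gene fell with each drug, against 3 and 5; 1 fell with cisplatin without vehicle replicate 3, and with osimertinib 2, 3 and 1 fell without vehicle replicate 2, vehicle replicate 3 and osimertinib replicate 2.

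**Figure D4:**
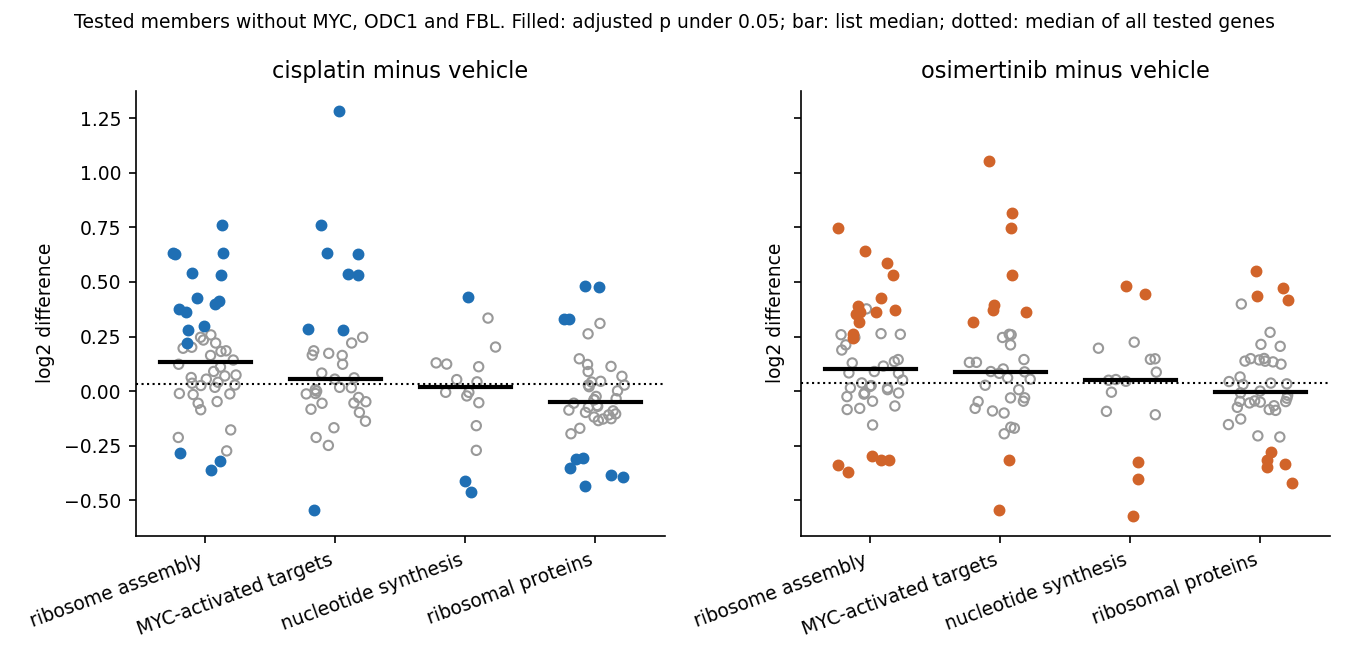
Log2 difference from vehicle (vertical axis) of each tested gene of 4 lists, without MYC, ODC1 and FBL, for cisplatin (left) and osimertinib (right); filled points passed limma at an adjusted p under 0.05, thick bars are list medians, and the dotted line is the median of all tested genes. Ribosome assembly factors have medians of 0.13 and 0.10 and most of their filled points above 0, and the filled ribosomal proteins lie on both sides.

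Genes widely reported as raised by MYC were counted apart from ODC1 and FBL. Of 35 tested, 8 rose and 1 fell with cisplatin (22.9% and 2.86%) and 8 rose and 2 fell with osimertinib (22.9% and 5.71%). Over all tested genes 16.5% rose and 14.5% fell with cisplatin, and 16.9% rose and 13.7% fell with osimertinib. The list medians were 0.055 and 0.088, beside 0.032 and 0.037 over all tested genes. The list shares 15 tested genes with the assembly factors, GRWD1, BYSL, NIP7 and RRP12 among them. HK2, the hexokinase that traps glucose in the cell, read 7.39, 7.29 and 7.36 with vehicle, 8.48, 8.72 and 8.69 with cisplatin, and 8.39, 8.44 and 8.38 with osimertinib. Its drug arrays were all about 1 log2 unit above vehicle, a rise of 1.28 (limma adjusted p = 4.58e-08) and 1.06 (2.30e-07). DCTPP1, which breaks down deoxycytidine triphosphate, rose by 0.54 (limma adjusted p = 0.00607) and 0.81 (3.30e-04). MCM4, of the replicative helicase, fell by 0.54 on the log2 scale with cisplatin (limma adjusted p = 8.42e-05) and by 0.55 with osimertinib (7.86e-05). Between the drugs 0 of the 35 passed limma, and 3 had an unadjusted p under 0.05.

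Of genes widely reported as lowered by MYC only 4 were tested, and they did not move together. THBS1, a matrix glycoprotein, read 5.73, 5.88 and 6.04 with vehicle, 4.70, 5.04 and 5.21 with cisplatin, and 4.85, 4.61 and 4.20 with osimertinib. It fell by 0.90 on the log2 scale with cisplatin (limma adjusted p = 0.0011) and by 1.33 with osimertinib (5.52e-05). NDRG2 rose with cisplatin by 0.72 (limma adjusted p = 7.89e-04) and differed by 0.20 with osimertinib (0.266). CCNG2, a cyclin linked to cell cycle arrest, read 4.15, 4.21 and 4.23 with vehicle, 4.32, 4.32 and 4.05 with cisplatin, and 5.41, 5.05 and 4.63 with osimertinib. Its vehicle and cisplatin means (4.20 and 4.23) lay below the level limit of 4.28, so CCNG2 was tested only because of its osimertinib arrays. It rose with osimertinib by 0.83 (limma adjusted p = 0.00175), and its difference between the drugs (0.80, 0.0267) was lost in 8 of the 17 alternatives that gave it a value. The other, NDRG1, differed by -0.026 and -0.096 and passed with neither drug.

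Nucleotide synthesis and ribosomal protein genes, which also serve growth, had calls in both directions. Of 16 tested enzymes of nucleotide synthesis 1 rose and 2 fell with cisplatin (6.25% and 12.5%), and 2 rose and 3 fell with osimertinib (12.5% and 18.8%). The shares over all tested genes were 16.5% and 14.5% with cisplatin, and 16.9% and 13.7% with osimertinib. CTPS1, which makes cytidine triphosphate, fell by 0.46 on the log2 scale with cisplatin (limma adjusted p = 4.59e-04) and by 0.57 with osimertinib (8.81e-05), and RRM2, a subunit of ribonucleotide reductase, fell by 0.41 with cisplatin (0.00233). RRM2 also fell by 0.32 on the log2 scale with osimertinib (limma adjusted p = 0.0106), a call lost with median centring (0.0525). IMPDH1, of guanine nucleotide synthesis, rose by 0.43 with cisplatin (limma adjusted p = 0.0193) and 0.48 with osimertinib (0.0107). Its cisplatin call was lost without vehicle replicate 2 (0.0564) or 3 (0.0720) or cisplatin replicate 2 (0.0914), and its osimertinib call without osimertinib replicate 1 (0.0528). Of 42 tested ribosomal protein genes 4 rose and 6 fell with cisplatin (9.52% and 14.3%), and 4 rose and 5 fell with osimertinib (9.52% and 11.9%). Their medians were -0.048 and -0.0042, beside 0.032 and 0.037 over all tested genes. With quantile normalization these medians became 0.0012 and 0.052, beside 0.106 and 0.109. RPL18 rose by 0.48 (limma adjusted p = 0.00243) and 0.47 (0.00259), and RPL34 fell by 0.43 on the log2 scale with cisplatin (0.00412). RPL34 also fell by 0.34 on the log2 scale with osimertinib (limma adjusted p = 0.0182). That call was lost with median centring (0.0721) and without vehicle replicate 3 (0.0793) or osimertinib replicate 2 (0.0559) or 3 (0.0574). Between the drugs 0 genes of either list passed limma, and 2 of each had an unadjusted p under 0.05.

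The E-box of the sequences above was counted in the same lists, with ODC1 and FBL kept where they belong. It was found in 18 of 29 MYC-activated genes with a window (62.1%), 18 of 42 ribosome assembly factors (42.9%), 5 of 15 polyamine genes, 3 of 8 snoRNP genes and 4 of 39 ribosomal protein genes (10.3%), against 12.9% of tested genes. Among assembly factors it was in 6 of 13 that rose with cisplatin and 12 of 29 that did not, and in 4 of 11 that rose with osimertinib and 14 of 31 that did not. LYAR, tested only because of its drug arrays, was among the 6. Without ODC1 and FBL, it was in 4 of 6 MYC-activated genes that rose and 12 of 21 that did not, with each drug. Of snoRNP genes other than FBL, 1 of 2 that rose and 1 of 5 that did not held it, with each drug. For polyamine genes other than ODC1 the counts were 0 of 3 that rose and 4 of 11 that did not, with each drug. For ribosomal proteins they were 0 of 4 that rose and 4 of 35 that did not, with each drug. Over all tested genes with a window, 13.3% of those that rose with cisplatin and 12.9% of the others held it, and with osimertinib 13.1% and 12.9%. These are counts of letters in small lists and carry no test.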

How the data were processed

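Total RNA was measured on 9 arrays, with groups, doses, time and replicate numbers read from the labels. The titles of the vehicle samples give no time, and 16 h was entered for them as for the drugs. Per the labels, a service provider summarised the scans per gene with standard Affymetrix pipelines, and the submitters' processing notes name Affymetrix Power Tools; the sources used here do not describe further steps. The range of the deposited values was taken to show a log2 scale. They were taken as normalized before deposit, so differences are read as relative to the bulk of transcripts. Array medians over all rows were 3.35 to 3.37 with vehicle, 3.29 to 3.36 with cisplatin and 3.29 to 3.32 with osimertinib. Of 53617 rows, 16098 had 1 gene in the platform annotation, all matched to RefSeq (GRCh38.p14) by Entrez identifier. For 779 genes with several rows the highest mean was taken.

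limma 3.58.1 in R 4.3.3 fitted 3 group means (6 residual degrees of freedom; empirical Bayes with trend and robust fitting) to genes at or above the 50th percentile of gene means. Two-sided p-values were adjusted by the Benjamini-Hochberg method within a comparison and called under 0.05, and SEs are moderated. "Rose" and "fell" mean called. The fit was tested on simulated data.

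The 3 genes, the lists and the tests were chosen with earlier results of these data known. Named are MYC, ODC1 and FBL, all tested genes of the MYC network and polyamine lists, up to 4 genes of each other list with the smallest p in each comparison, and the 5 nearest profiles; other snoRNP and assembly genes were named after their values were seen. A list of box C/D snoRNAs had 0 named genes. Alternatives were other filters, row choices, scalings, variance models, a replicate block, pairs of groups alone, and each array left out.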

Additional observations from a re-analysis of the deposited data

How the results depend on the processing

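None of the 126 called differences of named genes reversed its direction in the 17 or 18 alternatives that gave it a value; 41 lost their call in at least 1 alternative, and 50 of 273 not called gained one. The medians of the MYC network (osimertinib) and of the ribosomal proteins (both drugs) changed sign with quantile normalization. They stayed below the median of all tested genes, which moved to 0.106 with cisplatin and 0.109 with osimertinib. All 9 differences of MYC, ODC1 and FBL kept their direction in the 18 alternatives: MYC ranged from 0.58 to 0.72 with cisplatin, 0.96 to 1.14 with osimertinib and 0.32 to 0.50 between the drugs, ODC1 from 0.34 to 0.51, 1.33 to 1.51 and 0.90 to 1.10, and FBL from 0.89 to 1.06, 0.71 to 0.85 and -0.25 to -0.10. The counts below include MYC, ODC1 and FBL, which the counts above left out, so the numbers cannot be set side by side. These genes were picked with their differences known, and their calls are no test of them. With them included, the main fit had, higher with cisplatin and with osimertinib, 3 and 2 in the MYC network and 5 and 4 in polyamine metabolism. It had 3 and 3 in the snoRNPs and 10 and 10 among MYC-activated genes. Groups of 3 arrays at 1 dose and 1 time, 1 line, and values taken as normalized before deposit limit what can be seen.

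With quantile normalization on top, 1968 genes were higher and 974 lower with cisplatin (against 1227 and 1081), 2004 and 932 with osimertinib (1255 and 1022), and 96 and 121 between the drugs (57 and 73). The lists then gave, higher with cisplatin and with osimertinib, 6 and 4 in the MYC network, 8 and 9 in polyamine metabolism, and 7 and 6 in the snoRNPs, with 3 nucleotide synthesis genes higher with cisplatin, 7 ribosomal proteins and 1 RNA polymerase I gene higher with osimertinib; lower were 1 polyamine gene with cisplatin, 2 each in the MYC network and polyamine lists with osimertinib, and 1 each in the polyamine, MYC-activated and MYC-repressed lists between the drugs. With each array centred on its median, 1313 genes were higher and 855 lower with cisplatin, 1536 and 734 with osimertinib, and 48 and 37 between the drugs; 1 assembly gene was lower with each drug, 1 ribosomal protein lower with osimertinib, and 0 MYC network genes lower with osimertinib and between the drugs.

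With no level filter, 33 genes were higher and 43 lower between the drugs, 9 assembly genes higher with cisplatin, 1 nucleotide synthesis gene higher with osimertinib, and between the drugs 0 MYC network genes lower and 0 MYC-repressed genes higher. With the filter at the 60th percentile, 2 MYC network genes were lower and 0 MYC-repressed genes higher with osimertinib, and between the drugs 0 MYC-repressed genes were higher and 1 lower. Without trend and robust fitting, 28 genes were higher and 35 lower between the drugs, 0 MYC network genes lower and 0 MYC-repressed genes higher, and 2 ribosomal proteins were higher with cisplatin. With only the 2 groups compared, 32 were higher and 45 lower between the drugs, 0 MYC network genes lower and 0 MYC-repressed genes higher, and with osimertinib 3 MYC network genes were lower and 1 nucleotide synthesis gene higher.

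Arrays of the same replicate number deviated from their group means with correlations of -0.23 to 0.13, and 5 of 18 comparisons paired an array best with its own number, so the numbers were not taken as pairing. With the replicate block, 1128 genes were higher and 1027 lower with cisplatin, 1174 and 971 with osimertinib, and 45 and 63 between the drugs; 2 MYC network genes were lower with osimertinib and 0 between the drugs.

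Leaving out 1 array at a time gave 24 to 45 genes higher and 27 to 112 lower between the drugs. Assembly genes ranged from 8 to 14 higher and 1 to 3 lower with cisplatin, 8 to 15 higher and 1 to 5 lower with osimertinib, and 0 to 1 lower between the drugs. MYC network genes ranged from 1 to 2 higher and 0 to 3 lower with osimertinib, and 0 to 1 lower between the drugs. The snoRNPs ranged from 3 to 5 higher and 0 to 1 lower with cisplatin and 0 to 1 lower with osimertinib; RNA polymerase I genes from 0 to 1 higher and polyamine genes from 1 to 2 lower with osimertinib. Nucleotide synthesis genes ranged from 0 to 1 higher with cisplatin and 0 to 3 with osimertinib, and ribosomal proteins from 1 to 5 higher and 3 to 6 lower with cisplatin and 1 to 4 lower with osimertinib. Between the drugs, MYC-activated genes ranged from 0 to 2 lower and MYC-repressed genes from 0 to 1 higher. Counts that rested on 1 array were those of assembly genes (vehicle replicates 1, 2 and 3, cisplatin replicates 1, 2 and 3, osimertinib replicates 1 and 2), of the MYC network (any array but vehicle replicate 3 and cisplatin replicate 1 between the drugs; vehicle replicates 2 and 3, osimertinib replicate 1 and each cisplatin replicate for osimertinib), of the snoRNPs (vehicle replicate 1, cisplatin replicate 1, osimertinib replicates 1 and 3), of polyamine and MYC-activated genes (cisplatin replicate 1), of RNA polymerase I (vehicle replicate 1), of nucleotide synthesis (vehicle replicates 1, 2 and 3, cisplatin replicate 2, osimertinib replicates 1 and 2), of ribosomal proteins (vehicle replicates 1, 2 and 3, cisplatin replicates 2 and 3, osimertinib replicates 2 and 3) and of MYC-repressed genes (each cisplatin replicate, osimertinib replicates 1 and 2). The causes of these shifts were not tested.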
